A study of Mus musculus with 12 samples.

Results

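The effect of a knockdown on a gene can depend on the developmental stage at which it is measured, and this dependence was measured here gene by gene. For each gene, the log2 fold change of knockdown (KD) over wild type (WT) in embryonic stem cells (ESCs) was subtracted from the same log2 fold change in embryoid bodies (EBs). This log2 difference between stages was tested for all genes of the joined count tables with enough counts, 18975 of 52636, over all 12 libraries. A gene was called where the edgeR adjusted p was under 0.05, and the called genes were then sorted by their effect within each stage. Genes with opposite effects in ESCs and EBs were held apart from genes that were silent in a stage, defined as having under 10 counts in every library of that stage.

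ESCs grown with LIF and inhibitors of MEK and GSK3 are held in the naive state, the state of the inner cell mass before implantation, by transcription factors such as ESRRB, KLF2, TFCP2L1 and NANOG. When these supports are withdrawn and the cells aggregate into EBs, the naive factors are shut off, the cells pass through a formative and primed epiblast state, and mesoderm, endoderm and ectoderm genes are switched on. The same perturbation can therefore meet a gene that is highly expressed, being shut off, not yet on, or newly switched on, depending on the stage.

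All 12 libraries came from E14, a mouse ESC line, and the groups were ESC WT, ESC KD, EB WT and EB KD with 3 libraries each, described by the series as biological replicates. An shRNA marked the KD cells, directed at circKat6b-e2, which by its name is a circle formed from exon 2 of the histone acetyltransferase gene Kat6b. Undifferentiated cells grew on gelatin in the medium described above, and EBs were collected at day 6. Whether the WT cells received a control hairpin, and whether the KD cells are of clonal origin, is not in the labels, so the knockdown and any other difference between the WT and KD populations cannot be told apart. The circle itself was not measured, because RNA was selected by its poly-A tail.

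The libraries held between 25.4 and 37.8 M counts. The first principal component separated the stages and held 83.0% of the variance. ESC WT replicate 2 stood apart from the other ESC libraries, with a chi-square per gene of 60.9 and 61.7 against its replicates where all other replicate pairs gave 4.96 to 9.57, so the main counts are given with and without it. Naive pluripotency genes summed to 10251 to 12764 CPM (the usual depth-scaled counts, here with TMM factors) in ESC WT and 10414 to 11022 CPM in ESC KD. In EBs they summed to 395 to 403 CPM in WT and 763 to 790 CPM in KD. The 7 fibroblast or feeder markers summed to 23.6 to 37.8 CPM in ESC libraries, with 3 to 5 of them at 0, to 394 to 402 CPM in EB WT and to 1311 to 1343 CPM in EB KD. The 6 blood markers summed to 0.574 to 4.61 CPM in every library. In such bulk libraries, fewer cells of a type and less RNA per cell cannot be told apart.

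The KD effect differed between the stages for 4370 genes, 23.0% of those tested. It was higher in EBs than in ESCs for 2430 genes (12.8%) and lower for 1940 (10.2%), and 1620 of the 4370 differed by at least 1 log2 unit. Of these 1620 genes, 894 were higher and 726 lower. When each library was left out in turn, 2759 of the 4370 genes were called every time. Without ESC WT replicate 2, 5507 genes were called, 4156 of them shared with the full set. The split between higher and lower depended on the scaling: 55.6% of calls were higher with TMM over all libraries, 44.4% with TMM within each stage and 35.3% with library size alone. The median log2 difference over all genes was 0.03, -0.04 and -0.13 under these scalings.

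Most of these differences came from genes that responded in EBs. The EB effect was called for 6650 genes (35.0%) in the fit of 12 libraries, with 3807 higher in KD and 2843 lower. The ESC effect was called for 1999 genes (10.5%), with 969 higher and 1030 lower. The median absolute log2 fold change was 0.25 in ESCs and 0.37 in EBs, with median standard errors (SE) of 0.19 in each stage. Both SE rest on 1 dispersion per gene shared by all 12 libraries, so they do not measure the spread within each stage. ESC calls relied on the spread shared with the EB libraries: when each stage was fitted alone, 97 of 16081 genes were called in ESCs and 9667 of 17355 in EBs. Across the 18975 genes the 2 log2 fold changes had a Pearson correlation of 0.0706 and a Spearman correlation of 0.104. Both were 0.167 over the 12692 genes with at least 1 CPM in both stages, as a description, since genes of the same libraries are not independent.

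**Figure D1:**
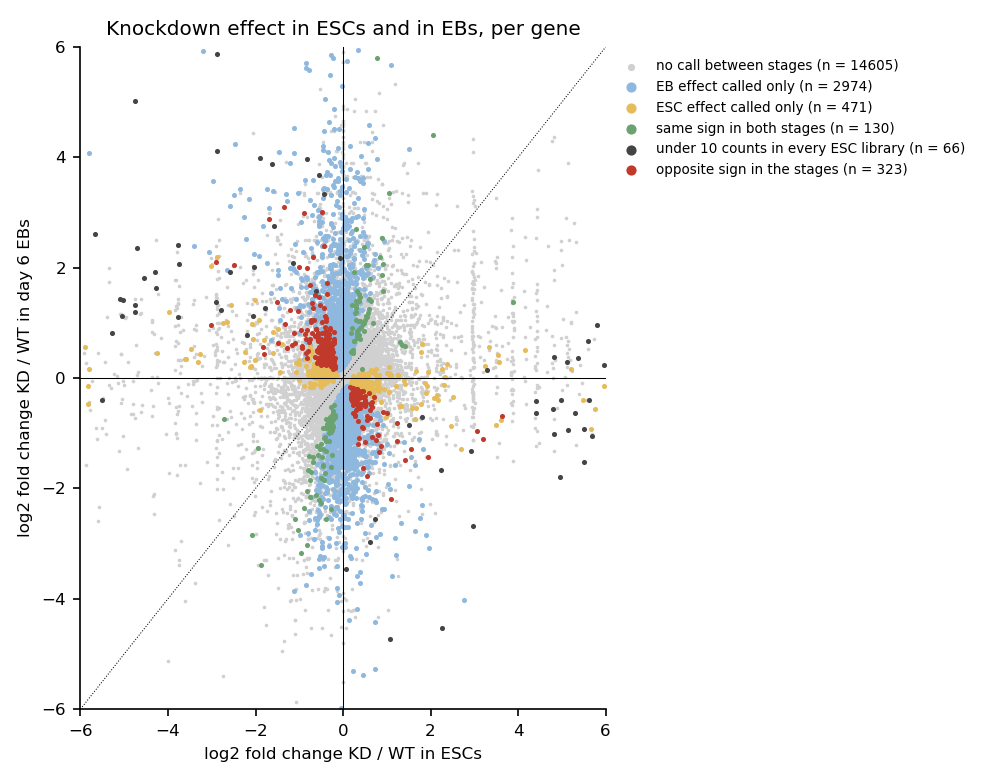
Each point is a gene, with its log2 fold change of KD over WT in ESCs on the horizontal axis and in day 6 EBs on the vertical axis, coloured by its class, with a dotted line where both are equal. 60 genes outside 6 log2 units are not drawn, nor are the 372 genes called between stages but in neither stage and the 34 silent in EBs, and vertical stripes are genes with an ESC group at 0. The 2974 genes called in EBs but not in ESCs spread along the vertical axis, and the 323 with opposite effects lie at the upper left and lower right.

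The 4370 genes fell into 8 classes. The largest held 2974 genes (68.1%) with an EB effect called and no ESC effect called, 1663 of them with a higher and 1311 with a lower difference. An ESC effect without an EB effect was called for 471 genes. Both effects were called in the same direction for 130 genes, with the effect larger in EBs for 123 and smaller for 7. Opposite effects were called for 323 genes, 7.39% of the 4370. A further 66 genes were silent in ESCs, 34 were silent in EBs, and 372 had no call in either stage alone. Of the 970 genes with a call in both stages, silent ones included, 641 moved in the same direction and 329 in opposite directions.

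Genes with opposite effects made up 1.70% of those tested. In 213 of them KD was lower than WT in ESCs and higher in EBs, with 209 measured above 3 counts in each group. Over those 209 the median log2 fold change was -0.40 in ESCs and 0.51 in EBs. In the other 110 KD was higher in ESCs and lower in EBs, with medians of 0.37 and -0.40 over the 109 above that floor. KD and WT libraries did not overlap in either stage for 320 of the 323, the exceptions being Bfar, Igf2 and Tcf4. Over all tested genes, 1226 (6.46%) showed such opposite separation in both stages. The effects were mostly small, and 16 of the 323 reached 1 log2 unit in both stages. In 308 of them each stage had a group mean of at least 1 CPM.

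The size of the opposite class rested on the ESC calls and on single libraries, and its members also on the scaling. With each stage fitted alone, 19 genes had opposite calls, 18 of them among the 323. The class held 144, 145 and 105 genes without ESC KD replicate 1, 2 and 3. It held 195, 195 and 203 genes without EB WT replicate 1, 2 and 3, 187 and 194 without EB KD replicate 2 and 3, and 501 without ESC WT replicate 3. Without ESC WT replicate 2 it held 372 genes, 238 of them shared, and none of the 323 lost its call between stages. In all, 61 genes stayed in the class whichever library was left out (49 lower in ESCs and 12 higher), and 51 of these 61 did so under the 3 other scalings as well. Of all 323, 139 stayed in the class under each of the 3 other scalings. With library size alone 183 of the 323 were shared, and with limma voom 189.

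Promoter sequence was read for 4 genes with large opposite effects, the first of each direction by effect size that had a promoter entry, so that the kind of start site behind each is visible. The windows are the 250 bases before the RefSeq start on GRCm38.p6, written 5′ to 3′ on the strand of the gene, with every CpG in capitals. Kcnj3 (chr2:55435720-55435969, plus strand) held 7 CpGs and Esyt3 (chr9:99358531-99358780, minus strand) held 10, and both were higher with KD in ESCs and lower in EBs. Ntrk2 (chr13:58806319-58806568, plus strand) held 19 and Lmo1 (chr7:109175208-109175457, minus strand) held 17, and both were lower with KD in ESCs and higher in EBs.
Kcnj3: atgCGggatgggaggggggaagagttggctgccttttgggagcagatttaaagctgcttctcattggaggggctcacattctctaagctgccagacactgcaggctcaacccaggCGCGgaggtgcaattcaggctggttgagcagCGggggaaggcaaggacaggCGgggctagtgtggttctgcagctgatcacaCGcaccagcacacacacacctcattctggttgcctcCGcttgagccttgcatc
Esyt3: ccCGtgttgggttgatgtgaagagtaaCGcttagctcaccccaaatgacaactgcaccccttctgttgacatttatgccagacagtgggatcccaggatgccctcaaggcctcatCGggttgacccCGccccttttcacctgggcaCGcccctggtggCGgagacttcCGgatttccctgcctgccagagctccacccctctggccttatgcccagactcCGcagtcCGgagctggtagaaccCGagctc
Ntrk2: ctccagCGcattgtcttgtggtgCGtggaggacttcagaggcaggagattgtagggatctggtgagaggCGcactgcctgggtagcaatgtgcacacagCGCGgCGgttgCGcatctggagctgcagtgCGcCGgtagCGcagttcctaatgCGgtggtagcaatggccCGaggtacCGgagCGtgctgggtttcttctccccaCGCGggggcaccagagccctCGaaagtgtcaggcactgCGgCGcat
Lmo1: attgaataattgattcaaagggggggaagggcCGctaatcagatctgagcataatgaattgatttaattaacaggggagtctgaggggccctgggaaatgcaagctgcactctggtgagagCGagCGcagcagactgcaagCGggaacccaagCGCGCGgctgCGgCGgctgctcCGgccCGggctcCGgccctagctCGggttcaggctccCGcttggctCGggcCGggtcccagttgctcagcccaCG

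Promoters were sought for 14880 of the 18975 tested genes. These included 107 of the 110 opposite genes higher in ESCs and 201 of the 213 of the reverse class. An entry was found for 89 of the 107 and for 168 of the 201. Over windows from 250 bases before to 50 after the start, the motif CCAAT was present on either strand in 50.6% of the first and 29.2% of the second, against 37.9% of all 27025 promoters of the table. GGGCGG was present on either strand in 83.1% and 72.6%, against 35.9% of all promoters. The median ratio of observed to expected CpG was 0.793 and 0.752, against 0.389 over all promoters. The table also holds promoters of genes that were not tested here. Over the 11479 promoters found for tested genes, CCAAT was present in 38.3% and GGGCGG in 63.3%, and the median CpG ratio was 0.741. These are letter matches and not tested. The values over tested genes stand as a description, since 77.1% of the 14880 genes sought had a promoter entry.

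Among the genes higher with KD in ESCs and lower in EBs were a potassium channel subunit, lipid-handling proteins, a sulfate transporter and a secreted BMP antagonist. Kcnj3, a subunit of G protein-gated inward rectifier potassium channels, stood at 1.24, 0.342 and 0.558 CPM in the 3 ESC WT libraries and at 1.64, 2.08 and 2.25 CPM in ESC KD. In EBs it stood at 12.6, 12.4 and 12.2 CPM in WT and at 4.52, 4.73 and 3.95 CPM in KD. Every ESC KD library was above every ESC WT library, and every EB KD library was below every EB WT library. The ESC log2 fold change was 1.42 (SE 0.34, edgeR adjusted p = 0.0194), the EB value was -1.49 (SE 0.27, edgeR adjusted p = 4.02e-04) and the difference between stages was -2.91 (SE 0.43, edgeR adjusted p = 1.69e-04).

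Esyt3, an extended synaptotagmin of membrane contact sites, showed the same order. Its ESC levels were 1.4, 0.427 and 1.36 CPM in WT and 2.26, 3.95 and 3.24 CPM in KD, and its EB levels were 9.24, 10.1 and 8.94 CPM in WT and 4.09, 3.99 and 3.52 CPM in KD. The groups did not overlap in either stage, and KD was 2.92-fold higher in ESCs and 2.44-fold lower in EBs. Sec14l4, of the SEC14 family of lipid-binding proteins, was 2.36-fold higher in ESC KD and 2.20-fold lower in EB KD, again with no overlap. Slc13a4, a sodium-coupled sulfate transporter, had the larger EB effect: 35.7, 33.4 and 33.7 CPM in WT fell to 5.87, 9.01 and 7.57 CPM in KD. In ESCs it went from 0.839, 1.62 and 1.67 CPM to 2.09, 3.15 and 3.39 CPM, so that KD was 2.14-fold higher there and 4.58-fold lower in EBs.

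These 4 genes were low in ESCs, and their opposite call ended when an ESC KD library was left out. It ended without replicate 2 for Esyt3 and Sec14l4, and without replicate 2 or 3 for Kcnj3 and Slc13a4. Without ESC WT replicate 2 all 4 remained opposite, with ESC log2 fold changes of 1.07 for Kcnj3 and 1.16 for Esyt3.

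A pair of genes of this direction was near 0 counts in ESC WT. Nog, which encodes the secreted BMP antagonist noggin, had 3, 0 and 0 counts in ESC WT and 9, 5 and 14 counts in ESC KD. In EBs, Nog stood at 15.8, 17.6 and 19.8 CPM in WT and at 7.96, 8.32 and 8.29 CPM in KD, 2.16-fold lower. F5, coagulation factor V, had 2 counts in each ESC WT library against 21, 13 and 14 counts in ESC KD, and fell in EBs from 12.3, 11.2 and 12.8 CPM to 7.1, 6.34 and 5.31 CPM. KD and WT did not overlap in either stage for either gene. Leaving out any library did not end the opposite call of F5, and that of Nog ended without ESC KD replicate 3.

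The reverse pattern, lower with KD in ESCs and higher in EBs, held several of the steadiest members. Ntrk2, the gene of the neurotrophin receptor TrkB, stood at 3.61, 3.46 and 2.83 CPM in ESC WT and at 0.755, 1.28 and 1.84 CPM in ESC KD. In EBs it stood at 0.989, 0.836 and 1.38 CPM in WT and at 9.2, 9.29 and 9.28 CPM in KD. The WT level thus went down from ESCs to EBs while the KD level went up, and no groups overlapped within a stage. The ESC log2 fold change was -1.34 (SE 0.30, edgeR adjusted p = 0.0153), the EB value was 3.11 (SE 0.29, edgeR adjusted p = 8.87e-07) and the difference was 4.45 (SE 0.41, edgeR adjusted p = 2.52e-06).

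Lsp1, an actin-binding protein known from leukocytes, stood at 2.11, 1.97 and 2.07 CPM in ESC WT and at 1.02, 0.798 and 0.368 CPM in ESC KD. In EBs Lsp1 stood at 20.6, 15.3 and 16.2 CPM in WT and at 44.8, 45.5 and 45.8 CPM in KD, so that KD was 2.87-fold lower in ESCs and 2.61-fold higher in EBs without overlap. Lmo1, a LIM-only transcriptional cofactor, was an ESC-enriched gene here, at 9.95, 15.8 and 9.61 CPM in ESC WT and at 5.9, 6.19 and 5.16 CPM in ESC KD. Its EB levels were 1.09, 1.08 and 0.628 CPM in WT and 2.48, 2.29 and 1.73 CPM in KD, and the groups were apart in each stage. The opposite calls of Ntrk2 and Lsp1 stood whichever library was left out, and that of Lmo1 ended without ESC KD replicate 1 or 3.

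Krt42, a type I keratin, was far lower in EBs than in ESCs. It stood at 63.9, 78.7 and 54.5 CPM in ESC WT and at 34.9, 28.9 and 34.9 CPM in ESC KD, and had 8, 2 and 4 counts in EB WT against 20, 18 and 16 counts in EB KD. Aldh3a1, an aldehyde dehydrogenase, stood at 23.8, 29.6 and 21 CPM in ESC WT and at 13.8, 10.9 and 15.3 CPM in ESC KD. Its EB counts were 2, 0 and 0 in WT and 4, 4 and 10 in KD, which is too few for a fold change. Irx5, an Iroquois homeobox factor, had 10, 10 and 2 counts in ESC WT and none in any ESC KD library, and rose in EBs from 3.59, 3.59 and 2.32 CPM to 9.71, 11.4 and 10.2 CPM. For these 3 genes a stage contributes few counts, and their place in the class rests on those.

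**Figure D2:**
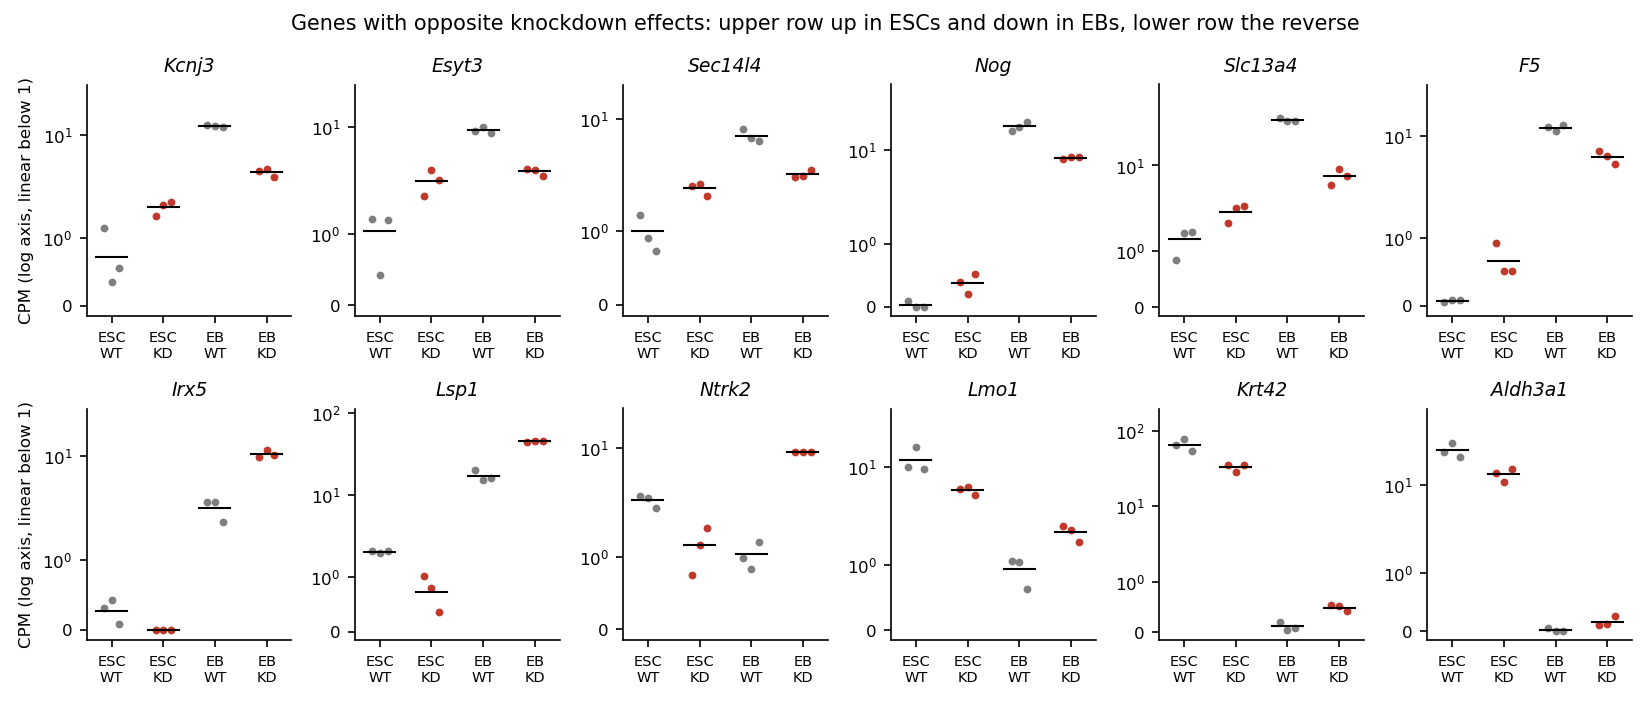
Each panel is a gene, with CPM of the 12 libraries by group on a log axis that is linear below 1, each point a library and each bar the mean of 3. In the upper row KD points lie above WT points in ESCs and below them in EBs, as for Kcnj3 at 1.64 to 2.25 against 0.342 to 1.24 CPM and 3.95 to 4.73 against 12.2 to 12.6 CPM, and the lower row shows the reverse.

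Genes of known developmental roles were also found among the 323. Lefty2, a secreted NODAL antagonist, stood at 53.1, 52.1 and 45.7 CPM in ESC WT and at 27.8, 33.1 and 32.2 CPM in ESC KD. In EBs Lefty2 stood at 5.49, 5.45 and 3.98 CPM in WT and at 21.4, 22.5 and 24.5 CPM in KD. KD was thus 1.62-fold lower in ESCs and 4.59-fold higher in EBs, with no overlap (difference 2.90, SE 0.17, edgeR adjusted p = 3.59e-08). Dnmt3b, the de novo DNA methyltransferase of the epiblast, moved the other way, from 48.5, 40.9 and 46.9 CPM to 65, 67.2 and 62.3 CPM in ESCs. In EBs it went from 381, 389.9 and 388 CPM in WT to 277, 269.6 and 271 CPM in KD. The log2 fold change of Dnmt3b was 0.51 (SE 0.06) in ESCs and -0.50 (SE 0.06) in EBs. The opposite calls of Lefty2 and Dnmt3b did not end in any of the 12 fits that left out a library.

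Imprinted genes, which are expressed from 1 parental allele, held 3 opposite members among 30 tested, against 1.70% of all tested genes. The Polycomb and cholesterol synthesis lists also held 3 each, of 25 and 21 tested. H19, a growth-restraining non-coding RNA, stood at 7.06, 5.04 and 8.53 CPM in ESC WT and at 2.13, 1.8 and 1.92 CPM in ESC KD, 3.55-fold lower. In EBs H19 stood at 1038, 1033 and 1030 CPM in WT and at 1445, 1571 and 1580.5 CPM in KD, 1.48-fold higher. Igf2, the fetal growth factor next to H19, had ESC levels of 0.622, 1.11 and 1.63 CPM in WT and 0.178, 0.319 and 0.626 CPM in KD, which overlap. Its EB levels were 3418, 3482 and 3399.6 CPM in WT and 5161, 5322 and 5461 CPM in KD, which do not. Ndn, the gene of necdin, was 1.57-fold lower in ESC KD and 2.85-fold higher in EB KD, from 62.5, 60.1 and 61.2 CPM to 172, 171 and 180.4 CPM. H19 and Ndn kept their opposite calls whichever library was left out, and Igf2 kept it in 9 of 12 such fits. Of 30 imprinted genes tested, 11 had a higher difference and 5 a lower one, against 12.8% and 10.2% of all tested genes. Without ESC WT replicate 2, 13 imprinted genes were higher and 6 lower.

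Further opposite members were signalling genes. Etv4, an ETS factor induced by FGF and ERK signalling, fell in ESC KD from a mean of 74.8 to 55.5 CPM and rose in EB KD from 9.24 to 22.1 CPM. Its opposite call ended without ESC KD replicate 3. Pim3, a kinase induced by STAT3, rose in ESC KD from a mean of 142 to 181 CPM and fell in EB KD from 187 to 82.2 CPM. Its opposite call ended without any 1 of the ESC KD replicates. Nkd1, a WNT target that restrains the pathway, fell by 0.80 on the log2 scale in ESCs and rose by 0.48 in EBs, and its call stood in all 12 fits. The ESC effects of the Polycomb genes Suz12 and Cbx7 and of the folate enzyme gene Mthfd2 were no longer called without ESC WT replicate 2. Their EB decreases were called either way, so that these genes then had only an EB effect called.

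Named after their values were seen, 4 more members had small p-values between stages. Nrp2, a semaphorin and VEGF co-receptor, fell in ESCs from 13.4, 13.4 and 13.1 CPM to 10.9, 9.98 and 8.4 CPM and rose in EBs from 35.5, 32.7 and 37.2 CPM to 184, 186 and 180.2 CPM. Mt1, a metal-binding metallothionein, fell in ESCs from 1034, 1503 and 1012 CPM to 864, 863 and 833 CPM and rose in EBs from 2.58, 2.53 and 2.25 CPM to 21.1, 18.8 and 19.6 CPM. Akt1, the growth-signalling kinase, fell in ESCs from 49, 46 and 50.4 CPM to 39.2, 36.6 and 33.5 CPM and rose in EBs from 103, 112 and 96.5 CPM to 191, 200.5 and 201 CPM. For these 3 genes the EB change was the larger one and the groups were apart in both stages. Notch1, the Notch receptor, was the reverse, at 8.55, 6.37 and 7.46 against 10.9, 9.26 and 10.5 CPM in ESCs and 58.6, 54.3 and 57 against 19.5, 16.6 and 18.7 CPM in EBs. Nrp2 and Akt1 kept their opposite calls in all 12 fits that left out a library, Mt1 in 9 and Notch1 in 4.

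Silence in a stage gave a separate and smaller set of differences. Of 1568 tested genes with under 10 counts in every ESC library, the EB effect was called for 338 (21.6%), 269 higher in KD and 69 lower. Over all tested genes it was called for 35.0%, with 20.1% higher and 15.0% lower. Of the 1568, 89 reached 10 counts in EB KD only (54 called in EBs) and 42 in EB WT only (20 called). Such genes passed the count filter through that group alone, which partly set their direction. The difference between stages was called for 66 of the 1568, with 36 higher and 30 lower, and 42 of the 66 had an EB call as well. A gene with no counts at all in ESCs had an undefined ESC effect: none of the 452 genes with both ESC groups at 0 was called between stages by edgeR, and none had an unadjusted p under 0.05, although 137 of them were called in EBs. DESeq2 called 14 of these 452 genes and limma voom 36. In 40 of the 66 called genes exactly 1 ESC group was at 0, so the fitted difference rested on a few ESC counts and its size is not given. Without ESC WT replicate 2 the set held 117 genes.

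The 6 named genes silent in ESCs and higher in EB KD included 3 for secreted matrix or matrix-modifying proteins. Lum, the collagen-binding proteoglycan lumican, had 27, 13 and 29 counts in EB WT and 1298, 1251 and 1232 counts in EB KD, and no more than 2 counts in any ESC library. The EB log2 fold change was 5.87 (SE 0.28, edgeR adjusted p = 4.06e-09), a 58.4-fold increase, and the EB groups were far apart. Dcn, the related proteoglycan decorin, rose 17.4-fold, from 12, 18 and 22 counts to 301, 261 and 291 counts. Adamts1, a secreted metalloprotease, rose 5.34-fold, from 318, 305 and 380 counts to 1668, 1487 and 1868 counts.

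Irs4, an insulin receptor substrate, rose from 271, 216 and 340 counts in EB WT to 1355, 1388 and 1217 counts in EB KD, 5.15-fold. Hoxb6, a trunk homeobox gene, rose 3.78-fold, from 232, 264 and 324 counts to 1009, 922 and 967 counts. Ednra, the endothelin A receptor of mesenchyme and smooth muscle, rose from 302, 277 and 279 counts to 684, 637 and 832 counts (EB log2 fold change 1.42, SE 0.17). For all 6 genes every EB KD library lay above every EB WT library, each ESC KD library had 0 counts and no ESC WT library had more than 6. The call between stages was lost in 1 of the 12 fits that left out a library for Lum, Dcn and Hoxb6, in 2 for Adamts1, and in none for Irs4 and Ednra.

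The reverse group, with a lower difference, was more mixed. Aqp1, a water channel, fell in EBs from 310, 268 and 291 counts in WT to 8, 14 and 8 counts in KD, 26.7-fold, and had at most 4 counts in any ESC library. Amer3, a WNT pathway regulator, fell 6.39-fold, from 1169, 1321 and 1347 counts to 181, 163 and 220 counts. Col9a1, a cartilage collagen, fell 2.03-fold, from 648, 700 and 747 counts to 318, 267 and 384 counts. In these 3 genes the EB groups were apart, and the call between stages stood in 12, 3 and 11 of the 12 fits that left out a library. The fitted differences of Amer3 and Col9a1 also rested on a few ESC KD counts. These were 0, 2 and 0 counts for Amer3 and 2, 6 and 0 for Col9a1, with none in ESC WT.

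In the other 3 no decrease in EBs was called. Styx, a pseudophosphatase gene, had 193, 180 and 174 counts in EB WT and 267, 197 and 144 in EB KD, which overlap (edgeR adjusted p = 0.616), and 0 counts in ESC WT against 9, 2 and 7 in ESC KD. Bmper, a secreted BMP regulator, had 727, 641 and 665 counts in EB WT and 485, 478 and 474 in EB KD (edgeR adjusted p = 0.119), with 0, 2 and 4 counts in ESC KD and none in ESC WT. Aff2, a gene of the AF4 family, rose in EBs, from 283, 267 and 287 counts to 473, 529 and 516 counts. Its ESC counts were 0 in WT and 8, 4 and 4 in KD, which is why its fitted difference is below 0.

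**Figure D3:**
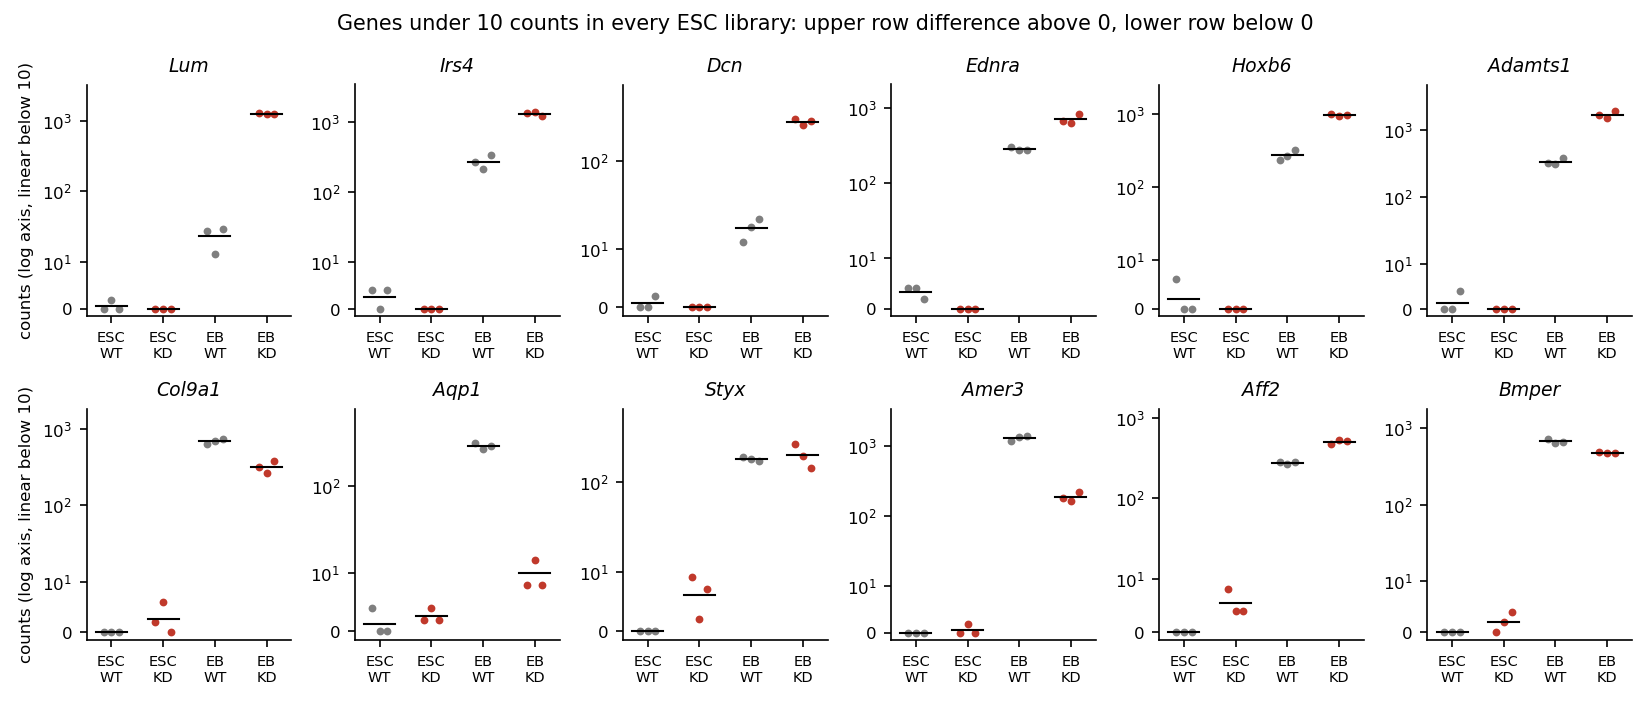
Each panel is a gene with under 10 counts in every ESC library, with counts of the 12 libraries by group on a log axis that is linear below 10, each point a library and each bar the mean of 3. In the upper row the EB KD points lie above the EB WT points, as for Lum at 1232 to 1298 against 13 to 29 counts, and in the lower row Aqp1, Amer3 and Col9a1 fall, Aff2 rises, and Styx and Bmper were not called in EBs.

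Silence in EBs was the less informative side. Of 785 tested genes with under 10 counts in every EB library, the ESC effect was called for 12 (1.53%), 2 higher and 10 lower, against 10.5% of all tested genes. Of the 785, 25 reached 10 counts in ESC WT only (4 called in ESCs) and 3 in ESC KD only (1 called). These too passed the count filter through that group alone. The difference between stages was called for 34 of the 785, with 28 higher and 6 lower. Only 3 of these 34 had an ESC call, and in 25 an EB group was at 0. Osm, the cytokine oncostatin M, had 55, 46 and 34 counts in ESC WT and 105, 74 and 103 in ESC KD, which do not overlap (edgeR adjusted p = 0.0659). Its EB counts were 4, 2 and 6 in WT and 0 in KD. Pla2g2e, a secreted phospholipase, had 102, 123 and 93 counts in ESC WT and 48, 39 and 63 in ESC KD (edgeR adjusted p = 0.103), with 0 in EB WT and 2, 4 and 6 in EB KD. Tm4sf5, Slc22a20, Prss45, Bhmt, Ckm and Grin1os were of the same kind, with an EB group at 0 and no ESC call. The last 4 were called between stages in 1 to 3 of the 12 fits that left out a library. Without ESC KD replicate 2, ESC KD replicate 3 or EB WT replicate 1, the set held 20, 18 and 22 genes.

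The largest group of genes expressed in both stages responded in EBs, and the naive pluripotency genes were the plainest case. Of 20 tested, 17 had a higher difference and none a lower one, by edgeR, by DESeq2, by limma voom or at an unadjusted p under 0.05, against 12.8% and 10.2% over all genes, and their median difference was 1.93 against 0.02 over genes above 3 counts in each group. In EBs 19 of the 20 were higher in KD, against 20.1% of all tested genes. Tdh, the threonine dehydrogenase of mouse ESCs, stood at 692, 801 and 678 CPM in ESC WT and at 646, 625 and 640 CPM in ESC KD. In EBs Tdh stood at 2.92, 3.1 and 2.17 CPM in WT and at 40.7, 39.7 and 37.4 CPM in KD, a 14.4-fold rise (difference 4.03, SE 0.13, edgeR adjusted p = 3.91e-11). The EB KD mean of Tdh was 39.3 ± 1.71 CPM against 637 ± 11 CPM in ESC KD (SD, n = 3), so EB KD libraries held far less of it than ESCs.

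Klf2, a Krüppel-like naive factor, stood at 567, 560 and 559 CPM in ESC WT and at 610.3, 679 and 642 CPM in ESC KD. In EBs Klf2 rose from 3.52, 4.5 and 3.84 CPM to 24.1, 25.7 and 25.6 CPM, 6.36-fold. Esrrb, the orphan nuclear receptor of the naive network, was higher with KD in both stages: by 0.30 (SE 0.09) on the log2 scale in ESCs and by 2.70 (SE 0.11) in EBs, where it went from 5.26, 6.53 and 5.12 CPM to 32.3, 41.7 and 36.1 CPM. Prdm14, a repressor of differentiation genes, rose 14.4-fold in EBs, from 0.104, 0.162 and 0.193 CPM to 2.21, 2.21 and 2.4 CPM. For each of these genes every EB KD library was above every EB WT library.

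Exceptions stood inside the same list. Nanog had a difference of 0.02 (SE 0.08, edgeR adjusted p = 0.901), with means of 46.6 ± 2.96 CPM in EB WT and 45.4 ± 1.56 CPM in EB KD (SD, n = 3). Tbx3 and Gbx2 were not called between stages either, with differences of 0.20 and 0.77. Klf5 was the opposite case, 32.6 against 22 CPM in ESCs and 8.26 against 11.5 CPM in EBs, although its opposite call stood in 1 of the 12 fits that left out a library. Under the other scalings and without ESC WT replicate 2, 15 to 18 of the 20 genes were called, all higher. Taken as KD minus WT in CPM, the difference between stages had the reverse sign for 7 of the 17 called genes. This was so for 4.23% of all called genes. Klf2, for example, gained 81.6 CPM with KD in ESCs and 21.2 CPM in EBs.

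**Figure D4:**
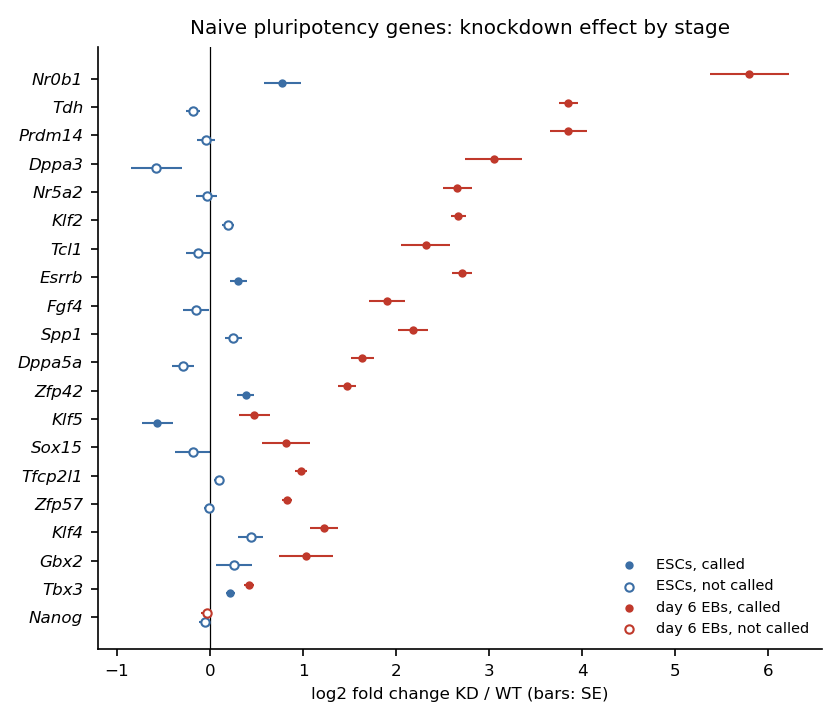
Log2 fold change of KD over WT in ESCs and in day 6 EBs, with SE bars, for the 20 naive pluripotency genes ordered by the difference between stages, filled points being called within the stage. The ESC points lie between -0.57 and 0.78 while 19 of the 20 EB points lie above 0 and are called, with Nanog at -0.04 the exception.

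Core and formative genes gave smaller counts. Of 16 core pluripotency genes, 8 were higher and 2 lower, with a median of 0.56. For this list and the next 2, the shares over all tested genes were 12.8% higher and 10.2% lower. Utf1, Tdgf1 and L1td1 rose in EBs by 1.14, 1.11 and 1.31 on the log2 scale, while Pou5f1 had a difference of 0.17 that was not called. Of 17 formative and primed genes, 6 were higher and 4 lower. Nkx1-2, a homeobox gene of the caudal epiblast, went in EBs from 3.31, 2.51 and 3.98 CPM to 27.3, 24.8 and 24.7 CPM, with no called change in ESCs. Lefty1 and Nodal, of the primitive streak list, rose in EBs by 2.58 and 0.86, and 7 of the 16 genes of that list were higher and 2 lower. The higher and lower counts without ESC WT replicate 2 were 11 and 2 for the core list, 5 and 5 for the formative list and 6 and 4 for the primitive streak list.

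Mesodermal and matrix genes responded in EBs, many from ESC levels near 0. Of 24 mesenchymal matrix genes, 11 had a higher and 2 a lower difference, and of 38 Hox genes 15 and 2. Of 19 haemato-endothelial genes 7 and 2 did, and of 22 lateral plate and limb mesoderm genes 5 and 1. The shares over all tested genes were 12.8% higher and 10.2% lower. Not above 3 counts in each group were 3 of the called matrix genes, 3 of the called Hox genes and 1 called haemato-endothelial gene. More members of these lists were called within EBs than between stages. In EBs, 26 of the 38 Hox genes and 13 of the 22 limb mesoderm genes rose, against 20.1% of all tested genes. Higher and lower differences without ESC WT replicate 2 numbered 10 and 2 for the matrix list, 11 and 2 for Hox, 8 and 2 for haemato-endothelial and 7 and 1 for limb mesoderm genes. The 7 fibroblast or feeder markers all stand in the matrix list as well, and their part in the result was not tested. In EBs, 5 of the 7 rose, against 20.1% of all tested genes, and 1 fell, against 15.0%. Between stages, 3 had a higher difference (Col3a1, Lum and Dcn) and 1 a lower one (Thy1). The 3 higher ones were not above 3 counts in each group. Over the 3 markers above that floor, the median difference was -0.38 and the median EB log2 fold change 0.02. Without ESC WT replicate 2, 1 of the 7 had a higher difference and 1 a lower one.

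Pitx1, a hindlimb homeobox gene, went in EBs from 18, 18.6 and 20.1 CPM in WT to 207, 228 and 219.6 CPM in KD, 11.5-fold, at 0.0798 to 0.663 CPM in ESC libraries. Tbx4, its partner in hindlimb identity, went from 5.44, 5.82 and 4.32 CPM to 66.6, 67 and 67.2 CPM, 12.9-fold, with overlapping ESC groups between 0.427 and 1.49 CPM. Hoxc11, a posterior Hox gene, went from 0.286, 0.216 and 0.145 CPM to 9.34, 13.4 and 12.6 CPM. All EB KD libraries of these genes were above all EB WT libraries, and their ESC effects were not called.

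Fn1, the matrix protein fibronectin, was expressed at like levels in both WT stages, which makes its difference between stages a measured one on both sides. It stood at 776, 605 and 789 CPM in ESC WT, 863, 861 and 935 CPM in ESC KD, 782, 775 and 803 CPM in EB WT and 2104, 2078 and 2058 CPM in EB KD. The log2 fold change was 0.29 (SE 0.08) in ESCs and 1.40 (SE 0.08) in EBs, and the difference was 1.11 (SE 0.11, edgeR adjusted p = 5.84e-06). Vim, the mesenchymal filament vimentin, was similar, with a difference of 0.90 (SE 0.07). Thy1, a surface protein of fibroblasts among others, went the other way, from 13.6, 14.8 and 13.3 CPM in EB WT to 2.93, 3.67 and 3.76 CPM in EB KD.

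Col3a1, a fibrillar collagen, had the largest fitted difference among the EB-responding genes with a mean log2 CPM of at least 3. It went from 11.5, 7.31 and 9.56 CPM in EB WT to 701, 730.4 and 735 CPM in EB KD, 76.2-fold. Its ESC counts were 15 in ESC WT replicate 2 and 0 in the other 5 libraries. Without that library the edgeR adjusted p of the difference was 1.0, because no ESC effect was left to compare. The differences of Sema6d, Ror1 and Cxcl12 rested in the same way on ESC levels under 1 CPM, and they were not called without ESC WT replicate 2 (edgeR adjusted p = 0.22 and 0.0627 for Sema6d and Ror1) or ESC WT replicate 1 (edgeR adjusted p = 0.0734 for Cxcl12). Their EB increases were called, and Cxcl12, a chemokine, went from 29.5, 28.3 and 29.9 CPM to 195, 197 and 200.2 CPM.

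Endothelial genes were not of 1 direction. Tek, the angiopoietin receptor, went in EBs from 3.33, 2.7 and 3.6 CPM to 11.3, 14 and 11.3 CPM, 3.79-fold higher. Sox18, an endothelial transcription factor, had 16, 8 and 21 counts in ESC WT, none in ESC KD, 0, 8 and 11 counts in EB WT and 111, 105 and 101 in EB KD, and counted among the opposite genes. Pecam1, an adhesion molecule that ESCs also express, stood at 95 to 98.7 CPM in ESC WT and 90 to 99.8 CPM in ESC KD, and fell in EBs from 29.1, 32.7 and 28.8 CPM to 16.5, 14 and 11.9 CPM.

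In the cardiac, epithelial, glycolysis, cholesterol and p53 lists, lower differences were called more often than higher ones. Among all tested genes, 10.2% were lower and 12.8% higher. Of 17 cardiac muscle genes, 7 were lower, with a median of -0.87 over the 16 above 3 counts in each group, and none was higher by edgeR, by DESeq2, by limma voom or at an unadjusted p under 0.05. Tnnc1, the slow troponin C, stood at 1.83 to 4.53 CPM in ESC WT and 1.68 to 2.4 CPM in ESC KD, and fell in EBs from 24.8, 25 and 24.2 CPM to 2.74, 2.55 and 2.35 CPM. Myl7, the atrial myosin light chain, fell in EBs from 6.8, 7.36 and 7.66 CPM to 0.78, 1.09 and 0.907 CPM, and stood at 30 to 63.2 CPM in ESC libraries. Of 18 surface ectoderm and epithelium genes, 8 were lower and 2 higher. Cldn4, a tight junction protein, differed in ESCs by less than the spread between replicates, with means of 107 ± 6.24 CPM in WT and 109.7 ± 2.95 CPM in KD (SD, n = 3), and fell in EBs from 66.8, 64.2 and 62.6 CPM to 17.7, 18.4 and 15.5 CPM. Cdh1, the epithelial cadherin, fell in EBs by 0.90 (SE 0.06) on the log2 scale, with no ESC call.

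Of 28 glycolysis and hypoxia genes, 18 were lower and 1 higher, against 10.2% and 12.8% of all tested genes, and their median was -0.43. Slc2a1, the main glucose transporter, stood at 409, 369 and 411 CPM in ESC WT and 435, 434 and 439 CPM in ESC KD, and fell in EBs from 1524, 1504 and 1515 CPM to 819, 868 and 900.2 CPM. Slc16a3, a lactate exporter, fell in EBs from 210.2, 204 and 206 CPM to 38.3, 37.6 and 43.1 CPM, and Aldoc, an aldolase, from 27, 27.9 and 27.2 CPM to 3.42, 3.3 and 5.15 CPM. Of 21 cholesterol synthesis genes, 12 were lower and 3 higher, with Insig1, a sterol sensor, at -1.24 (SE 0.11) and Dhcr7, the last enzyme of the pathway, at -1.05 (SE 0.08). Idi1 and Hsd17b7, enzymes of the pathway, were opposite genes, higher in ESC KD and lower in EB KD. Of 23 p53 targets, 10 were lower and 4 higher, with Btg2 at -1.29 (SE 0.10) and Ccnd1 at 0.68 (SE 0.10). Other scalings gave 17 to 19 lower genes of the glycolysis list, 13 to 14 of the cholesterol list and 9 to 11 of the p53 list, and 1 higher gene of the glycolysis list. With TMM within each stage or library size alone, the higher genes numbered 0 for the cholesterol list and 1 for the p53 list. Lower and higher differences without ESC WT replicate 2 numbered 8 and 0 for the cardiac list, 11 and 2 for the epithelial, 20 and 2 for the glycolysis, 15 and 1 for the cholesterol and 10 and 4 for the p53 list.

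**Figure D5:**
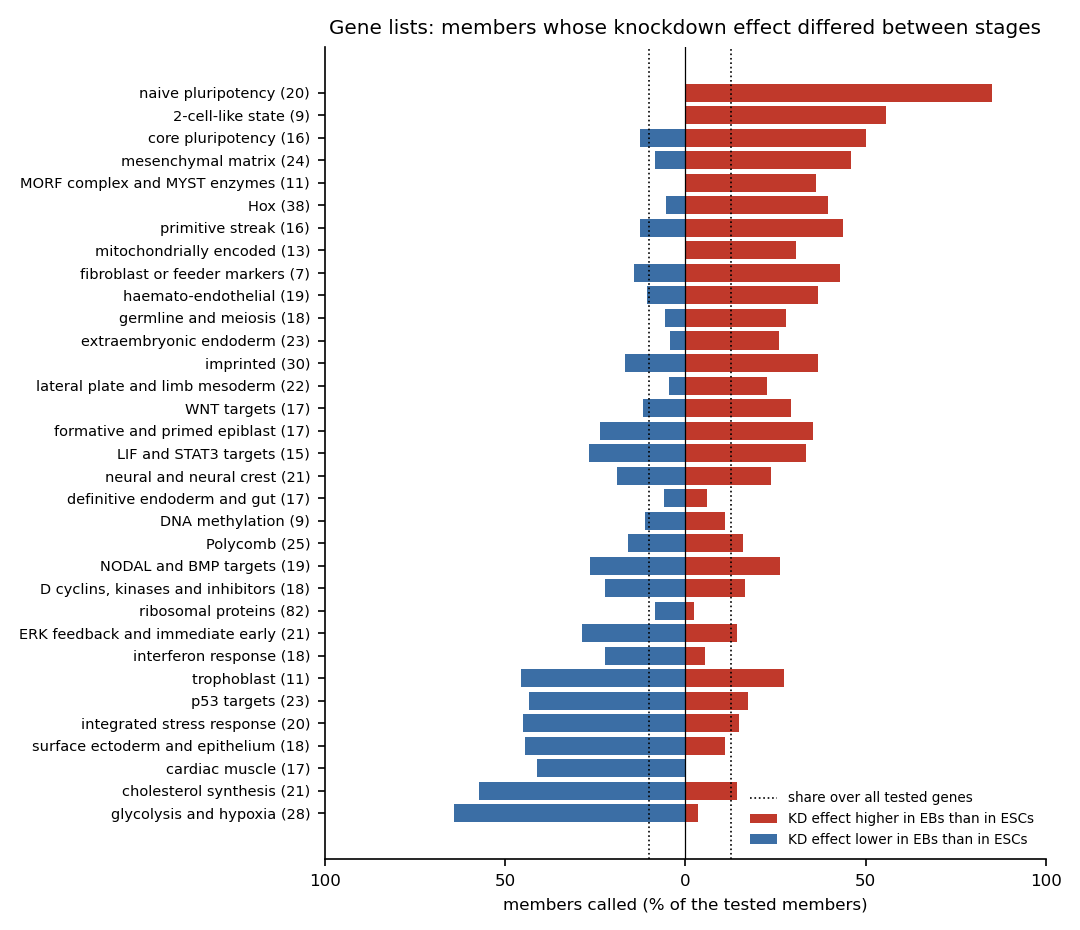
Share of the tested members of each gene list, with their number in parentheses, whose KD effect was called higher (right) or lower (left) in EBs than in ESCs, and dotted lines at the shares over all tested genes, 12.8% and 10.2%. The naive pluripotency list reaches farthest to the right with 17 of 20 and the glycolysis and hypoxia list reaches left with 18 of 28.

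The other large single-gene decreases in EBs were of mixed function. Gadd45b, a stress-inducible gene, stood at 78.8, 100.4 and 82.6 CPM in ESC WT and 75.5, 80.5 and 76.4 CPM in ESC KD, and went in EBs from 70.7, 73.8 and 72.3 CPM to 8.53, 11 and 7.95 CPM. Atp2a3, a calcium pump, had a difference of -3.11 (SE 0.19), and Rhov and Matn1 had differences of -2.98 (SE 0.41) and -2.80 (SE 0.29). Every ESC KD library of Rhov and Matn1 also lay below every ESC WT library. Their ESC log2 fold changes of -0.43 and -0.47 were not called (edgeR adjusted p = 0.21 and 0.0746). Oas3, an interferon-induced gene, fell in EBs from 7.34, 8.09 and 6.18 CPM to 0.646, 0.516 and 0.853 CPM with overlapping ESC groups.

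The smaller set with an ESC effect called and no EB effect called held 4 of the 9 tested genes of the 2-cell-like state. This is a rare state of ESC cultures that expresses genes of the cleavage embryo. The 4 genes were Zscan4a, Zscan4c, Zscan4d and Arg2. Of the 9, 5 had a higher difference and none a lower one by edgeR, against 12.8% and 10.2% of all tested genes. At an unadjusted p under 0.05, 1 was lower, and 1 was lower by DESeq2. The fifth called gene, the gene model Gm21761, counted among the opposite genes, with a log2 fold change of -3.01 (SE 0.29) in ESCs and 0.97 (SE 0.35, edgeR adjusted p = 0.0405) in EBs. Its opposite call ended in 11 of the 12 fits that left out a library. Zscan4c had 82, 53 and 50 counts in ESC WT and 2, 6 and 6 counts in ESC KD, against 10, 7 and 14 in EB WT and 16, 7 and 14 in EB KD. Zscan4d had 75, 46 and 56 counts in ESC WT and 6, 4 and 18 in ESC KD, against 8, 14 and 10 in EB WT and 15, 25 and 36 in EB KD. The ESC groups did not overlap for either gene. The EB groups of Zscan4d did not overlap either, with KD the higher (log2 fold change 1.32, edgeR adjusted p = 0.0731), and no EB effect was called for either gene. Zscan4 genes are near-identical copies, and reads may be split among them, so the values of single copies are uncertain. The ESC decrease was called for 6 of the 9 genes, where 10.5% of all tested genes had an ESC call in either direction. The list gave 5 higher calls under every scaling and without ESC WT replicate 2.

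Other ESC effects absent from EB calls included increases of Plag1, a zinc finger factor, and Prkar2b, a regulatory subunit of protein kinase A. Plag1 stood at 0.249, 0.0854 and 0.319 CPM in ESC WT and at 1.07, 1.04 and 1.22 CPM in ESC KD. Its EB means were 27.4 and 25 CPM in WT and KD. Mid1, a microtubule-associated ubiquitin ligase, stood at 26.7, 13 and 38.1 CPM in ESC WT and at 84.5, 81.4 and 104 CPM in ESC KD, and at overlapping levels of 129 to 242 CPM in EBs. Krt19, a keratin, fell in ESCs from 42.6, 55.3 and 46.1 CPM to 30.3, 28.7 and 26.7 CPM, and its EB means were 96.6 and 90.8 CPM. In EBs every KD library of Plag1, Prkar2b and Krt19 lay below every WT library. Their EB effects were not called (edgeR adjusted p = 0.488, 0.227 and 0.457).

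Same-direction effects that differed in size were called for 130 genes. Nr0b1, the naive factor DAX1, stood at 48.8, 29.7 and 50.4 CPM in ESC WT and at 71.6, 75.1 and 74.7 CPM in ESC KD, and rose in EBs from 0.0521, 0 and 0.193 CPM to 4.25, 5.13 and 5.49 CPM. Vegfc, the lymphangiogenic growth factor, rose by 1.05 (SE 0.14) on the log2 scale in ESCs and by 3.36 (SE 0.15) in EBs. Cdkn1c, an imprinted inhibitor of the cell cycle, fell from a mean of 4.44 to 1.22 CPM in ESCs and from 136 to 13 CPM in EBs, and the imprinted Phlda2 fell from 66.3 to 15.6 CPM and from 210 to 29.1 CPM. Effects smaller in EBs were called for 7 genes, among them Nefm, a neurofilament subunit, whose call was lost in 9 of the 12 fits that left out a library.

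Kat6b, the host gene of the circular RNA, was higher with KD in both stages and more so in EBs. Its gene counts, which come from linear poly-A RNA, gave 89.3, 66.1 and 80.5 CPM in ESC WT and 106, 98.6 and 106 CPM in ESC KD. In EBs Kat6b gave 30.8, 30.1 and 29.1 CPM in WT and 62.3, 62 and 60.5 CPM in KD. The groups were apart in each stage, with log2 fold changes of 0.40 (SE 0.09, edgeR adjusted p = 0.0148) and 1.04 (SE 0.09, edgeR adjusted p = 3.44e-07) and a difference of 0.64 (SE 0.12, edgeR adjusted p = 0.00166). With library size alone as the scaling, the difference was 0.49 (edgeR adjusted p = 0.0533). Of 11 genes of its acetyltransferase complex and related enzymes, 4 were higher, against 12.8% of all tested genes. None was lower by edgeR, DESeq2 or limma voom (1 lower at an unadjusted p under 0.05), against 10.2% of all tested genes by edgeR. Brpf3 and Kat6a had differences of 0.69 (SE 0.10) and 0.53 (SE 0.09).

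A difference of log2 fold changes is one of ratios, and it can have another sign than a difference of levels. For 185 of the 4370 called genes (4.23%) the difference of KD minus WT in CPM had the reverse sign. They included 33 of the 123 with the larger ratio in EBs and 116 of the 2974 called in EBs alone. By list, they included 7 of the 17 called naive pluripotency genes. Esrrb is such a case: its ratio rose more in EBs, while the CPM gain was larger in ESCs by 80.7 CPM, from its far higher level there. At the edge of the call stood Fam172a, with a difference of -0.69 and an edgeR adjusted p of 0.04997, and Nsa2, not called, with -0.26 and 0.0501.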

How the data were processed

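The authors deposited raw counts per gene, with a separate table for each stage. Per the submitters' processing notes, they aligned reads with HISAT2 2.1.0 and counted them with featureCounts 2.0.3. Per the file headers, the deposited counts used Ensembl release 90 on GRCm38, asked that both mates map without chimeric pairing, and set no strand option, so antisense partners cannot be told apart. Low counts were mostly even (61.7% to 68.7% of counts from 1 to 10), so mates appear to have been counted singly. The treatment of multiply aligned reads is not given in the sources used here.

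The tables were joined on gene identifier and fitted with edgeR 4.0.16 in R 4.3.3 (quasi-likelihood F-test, TMM, filterByExpr, robust, no covariate) over 4 groups, which share 1 dispersion per gene. P-values were adjusted by Benjamini-Hochberg over all 18975 genes. The SE of a log2 fold change was derived from its F value. CPM use TMM over all 12 libraries. The script was tested on simulated data. Alternatives were 3 other scalings, DESeq2 1.42.0, limma 3.58.1 voom, filters, silence thresholds, a replicate block and each library left out. Same-numbered replicates did not deviate together (correlations of -0.026 to 0.037), so numbers were not treated as pairs. P-values measure the spread between these libraries.

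The members and the 34 gene lists, some sharing genes, were chosen with earlier results of these data known. Most genes were named by rule: the largest effects of each class above a minimum level and up to 3 called members with the smallest p per list. Gene models were left out except Gm21761. Other genes, among them Igf2, Nanog, Klf5, Pou5f1 and Idi1, were named outside this rule. Lists were described by counts and medians, with no set test. Promoter sequences are from RefSeq.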

Additional observations from a re-analysis of the deposited data

Results flagged for a closer look

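Each result here is a difference of the KD effect between EBs and ESCs that was tested directly, as the difference of the 2 log2 fold changes (EB minus ESC) in edgeR's fit of 12 libraries. Such a difference was called for 4370 genes.

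Among opposite genes higher with KD in ESCs and lower in EBs, the log2 difference was -2.91 for Kcnj3, -2.83 for Esyt3, -2.38 for Sec14l4 and -3.29 for Slc13a4. Among those lower in ESCs and higher in EBs it was 2.91 for Lsp1, 4.45 for Ntrk2, 2.25 for Lmo1 and 3.00 for Krt42. The fitted values of -4.32 for Nog, -4.01 for F5, 7.85 for Irx5 and 3.90 for Aldh3a1 compare a group at or near 0 counts. They depend on the prior count and do not measure a size.

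Among genes with an EB effect called and no ESC effect called, the difference was -3.11 for Atp2a3, -2.98 for Rhov and -2.81 for Gadd45b. It was -2.80 for Matn1 and -2.72 for Tnnc1. The values of 11.85 for Col3a1, 5.34 for Sema6d, 4.60 for Ror1 and 4.59 for Cxcl12 rest on a few counts in ESC WT libraries, and do not measure a size either. The same holds for 4.66 for Vwa3b, which had 0, 2 and 0 counts in EB WT and gave 7.06 without EB WT replicate 2.

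Same-direction genes differed by 5.02 for Nr0b1, 2.40 for Esrrb and 2.31 for Vegfc where the effect was larger in EBs, and by -2.51 for Atp7a, 1.98 for Pdlim3 and -0.83 for Nefm where it was smaller. Of these, Nr0b1 in EB WT, Atp7a in ESC WT and Pdlim3 in ESC KD were near 0 counts. Genes with an ESC effect called and no EB effect called differed by 2.56 for Itpripl2, -2.43 for Plag1, -2.27 for Mid1 and -2.16 for Prkar2b. The host gene Kat6b differed by 0.64.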

How the results depend on the processing

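The number of genes whose KD effect differed between stages stayed within 1.5 times of 4370 under every alternative run, from 3389 to 5507 with a library left out. Over 33 named genes, 695 of 726 alternative values had the same direction and call, 25 lost the call and 6 reversed, and 24 genes were called under every alternative fit. The calls lost with a library left out were those of Col3a1, Sema6d, Ror1, Cxcl12, Pdlim3 and Nefm.

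The classes moved more. DESeq2 gave 586 opposite genes, 142 silent in ESCs and 69 silent in EBs, against 323, 66 and 34. Stage calls from a fit of each stage alone left 19 opposite genes. Without a filter on low counts the silent sets held 104 and 60 genes, and with at least 1 CPM in 3 libraries the set silent in EBs held 22. Silence at under 5 counts gave 20 and 11 genes, and at under 20 counts 174 and 91. Asking for a call in the expressed stage as well, an alternative chosen after seeing the data, gave 42 and 3. With a library left out, the opposite class ranged from 105 to 501, the set silent in ESCs from 46 to 117 and the set silent in EBs from 18 to 42. The causes were not tested, beyond fewer samples or a changed definition.

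With the replicate block, which same-numbered samples gave no ground for, 4023 genes were called between stages (3991 with a block within stage), and the set silent in EBs held 19 with either block. On the CPM scale 6 named differences reversed: Rhov 2.43, Matn1 4.24, Nr0b1 -26.0, Esrrb -80.7, Atp7a 32.1 and Pdlim3 -7.33 CPM. Of 82 ribosomal protein genes, 7 had a lower difference, 33 with library size alone and 56 without ESC WT replicate 2. In the main fit, 10.2% of all tested genes had a lower difference. Depth limits the genes with a group near 0 counts, 195 of the 4370.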
